A study of Homo sapiens with 31 samples.

Results

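LS1034 and HT-29 are established human colorectal adenocarcinoma cell lines, and the 6 libraries described here are the 3 unmixed libraries of each, taken by their labels from the 31 libraries of the series. The labels give the cecum as the source of LS1034 and the colon as the source of HT-29, name both lines wild type and list no treatment. The series was made to recover cancer profiles from RNA mixtures with the normal colon line CCD841CoN. The unmixed lines serve in it as the known profiles, so the comparison asks by which genes a mixture holding one line could be told from a mixture holding the other. Both lines are known to be microsatellite stable. HT-29 carries a mutated BRAF, and APC is mutated in both, as background not measured here. The cells grew in RPMI-1640 or DMEM with fetal bovine serum, and the labels do not say which line had which medium. Each line stands for 1 tumour, so the tumour site, the donor, the driver mutations and the medium cannot be told apart. Whether the 3 libraries of each line stem from separate cultures is not stated in the labels. The p-values measure only the spread between libraries of a line, which the reported fit estimated over all 15 unmixed libraries of the 5 lines.

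The epithelium of the large intestine is renewed from stem cells at the crypt base, where Wnt signals hold beta-catenin in the nucleus and keep genes such as LGR5 and ASCL2 active. Cells that leave the base become absorptive colonocytes, with a brush border and ion transporters, or secretory cells, which make mucins and defence proteins. The homeobox factors CDX1 and CDX2 keep the cells intestinal, and ATOH1, SPDEF and CREB3L1 belong to the secretory programme. Colorectal cancer lines keep different parts of these programmes.

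The 6 libraries held 10800329 to 34253797 counts on 17113 protein-coding genes. The share on mitochondrially encoded genes ran from 0.113% in HT-29 replicate 3 to 1.29% in LS1034 replicate 2. Levels are given as CPM (read counts scaled to library size, with TMM scaling), either in replicates 1, 2 and 3 in that order or as mean ± SD over the 3 libraries. They are not divided by gene length, so levels of different genes are not compared. All 6 libraries carried the epithelial markers EPCAM, KRT8 and KRT20. The intestinal markers CDX2 and CDH17, also chosen to check the labelled cell type, were high in LS1034 only and stood at a few CPM in HT-29, as given below. EPCAM, the epithelial adhesion molecule, stood at 2520.4, 2436 and 2573 CPM in LS1034 and 1653, 1265 and 1629.5 CPM in HT-29. The simple keratin KRT8 stood at 2933, 3780.1 and 5583 CPM in LS1034 and 6019.8, 6224 and 13063 CPM in HT-29. Neither was called between the lines in the reported fit, and KRT8 was called with the replicate number as a block (log2 fold change -1.03, adjusted p = 0.00711). KRT20, the keratin of differentiated colon cells, stood at 425, 431 and 576 CPM in LS1034 and 424, 490.4 and 601 CPM in HT-29, and the values of the lines overlapped. Markers of fibroblasts summed to 375.9 to 574.8 CPM in the LS1034 libraries and 210.6 to 214.7 CPM in the HT-29 libraries over 28 genes, most of it S100A4, which epithelial cells also express (331 ± 59.5 against 181 ± 15.5 CPM). The pericyte and fibroblast receptor PDGFRB stood at 3.42 ± 0.338 against 0.181 ± 0.09604 CPM, and the mesenchymal filament VIM is given below.

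One library stood apart. Of 9 HCT116 markers, genes at 20 CPM or more in HCT116 and at most 0.5 CPM in every LoVo, LS1034 and CCD841CoN library and in at least 2 HT-29 libraries, all 9 had counts in HT-29 replicate 2. They summed there to 5.03% of their HCT116 level, against 0.0660% in replicate 1 and no count in replicate 3. The piRNA pathway gene GTSF1 stood at 0, 15.5 and 0 CPM in the HT-29 libraries, and the cancer testis gene MAGEB2 at 0, 9.91 and 0 CPM. GTSF1 was higher in HT-29 in the fit of all libraries (log2 fold change -6.198 ± 1.75, adjusted p = 0.0174). Markers of LS1034 summed to 0.0750% to 0.156% of their LS1034 level in the HT-29 libraries, and markers of HT-29 to 0.117% to 0.198% of their HT-29 level in the LS1034 libraries. Markers of CCD841CoN summed to 0.043% to 0.173% of their CCD841CoN level in the LS1034 libraries and 0.0193% to 0.0832% in the HT-29 libraries. LoVo markers reached 0.642% in LS1034 replicate 2. No gene met the matching rule for HCT116 markers in the LS1034 libraries, which asks for at most 0.5 CPM in every HT-29 library, replicate 2 included. The 9 markers above were by their own rule at most 0.5 CPM in every LS1034 library. Among them, GTSF1 stood at 269.8 CPM or more and MAGEB2 at 173.3 CPM or more in the HCT116 libraries. Results are therefore given with and without HT-29 replicate 2. A level near 0.2% of the other line's is of the size of these marker levels. Whether such levels come from reads of another line or from low expression was not tested. GTSF1 was not called without LS1034 replicate 1 (adjusted p = 0.0816), LS1034 replicate 3 (adjusted p = 0.0585) or HT-29 replicate 2 (adjusted p = 0.185). GTSF1 was also not called by DESeq2 (adjusted p = 0.0502).

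**Figure D1:**
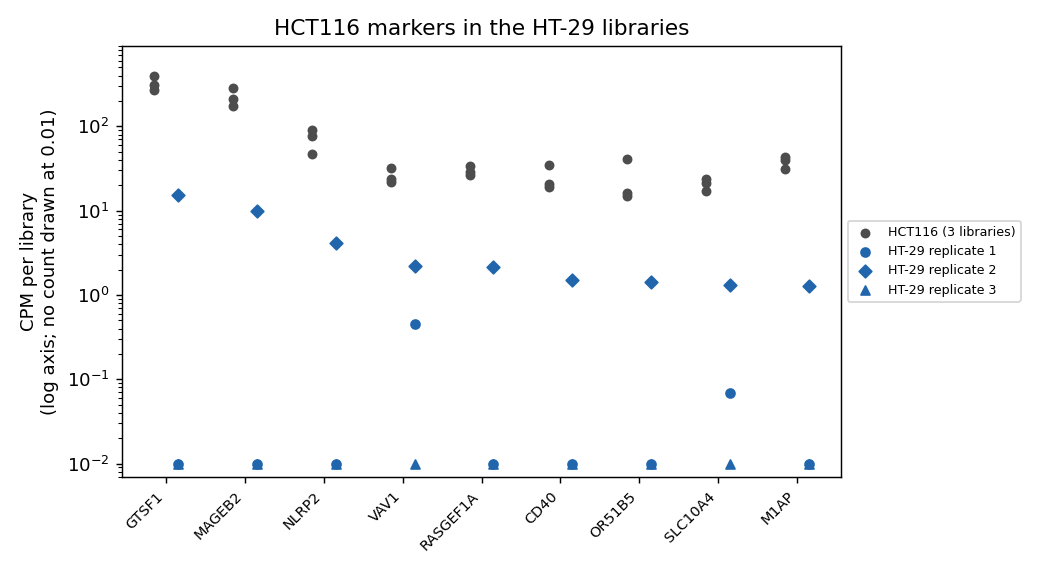
CPM (log axis) of the 9 HCT116 markers in the 3 HCT116 libraries (grey) and in each HT-29 library (blue; circle, diamond and triangle for replicates 1, 2 and 3). HT-29 replicate 2 holds all 9 markers at a summed 5.03% of the HCT116 level, replicate 1 holds 2 of them at a trace and replicate 3 none.

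A gene was called where its adjusted p lay below 0.05 and its level differed at least 2-fold in the fit. Of 14452 tested genes, 3265 (22.6%) were called: 1643 were higher in LS1034 (11.4%) and 1622 higher in HT-29 (11.2%). Without HT-29 replicate 2 it called 2982 of 14760 genes (20.2%), with 1629 higher in LS1034 (11%) and 1353 higher in HT-29 (9.17%), and 2726 genes were called in both fits, all of them in the same direction. The most abundant of the 539 genes whose call ended were LMNA, HMGA1, EIF3B, TSPAN1, MRPS35 and MISP, and the most abundant of the 256 whose call began were LDHA, PPIA, HSPA9, FLNA, ABHD2 and STMN1. Leaving out at least 1 other library also changed the call of LMNA, HMGA1, EIF3B, TSPAN1, MISP, LDHA, PPIA, HSPA9 and STMN1. LDHA, PPIA and FLNA were also called with the replicate number as a block in the 12 cancer line libraries, a fit that called 3601 of 13875 genes (26.0%; 12.7% higher in LS1034 and 13.2% higher in HT-29). The libraries of the lines did not overlap in 5983 tested genes (41.4%; 21.2% higher in LS1034 and 20.2% higher in HT-29), and in 3130 of the called ones. In 293 called genes the mean levels differed by 100-fold or more, 156 of them higher in LS1034 and 137 higher in HT-29. All tested genes together had a median log2 fold change of 0.02. The shares of list members called, given below, are to be read against the 22.6% of all tested genes. All adjusted p-values are from edgeR's quasi-likelihood test with Benjamini-Hochberg adjustment, log2 fold changes are LS1034 over HT-29 ± SE, and folds are ratios of mean CPM.

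**Figure D2:**
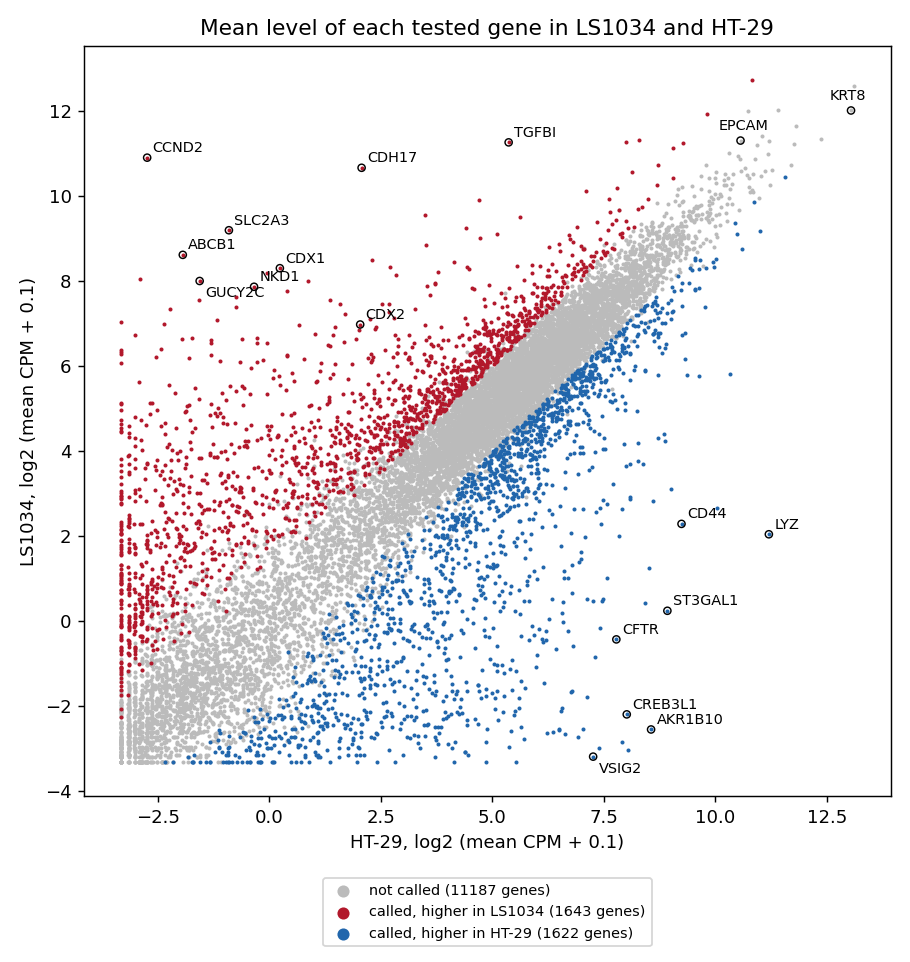
Mean level of each tested gene as log2(CPM + 0.1) in HT-29 (x axis) and LS1034 (y axis), with called genes in red (higher in LS1034) and blue (higher in HT-29). Called genes number 1643 and 1622 and reach from the highest to the lowest levels, while EPCAM and KRT8 lie high in both lines and were not called.

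The largest ratios among genes at 20 CPM or more in the higher line joined genes of several kinds. The gene with the largest ratio in LS1034 was CCND2, the cell cycle regulator cyclin D2, at 2258, 2475 and 964 CPM in LS1034 and 0, 0.151 and 0 CPM in HT-29 (37648-fold, adjusted p = 4.89e-08). It was abundant in every LS1034 library and at or near 0 in every HT-29 library. STYXL2, a catalytically inactive member of the dual-specificity phosphatase family, stood at 265 ± 85.5 against 0.0345 ± 0.0598 CPM (7664-fold, counting interval 2622 to 37164, adjusted p = 2.82e-07). CREB3L3, a membrane-bound transcription factor of liver and intestine, stood at 105 ± 35.5 against 0.0252 ± 0.0437 CPM (4167-fold, counting interval 1153 to 34417, adjusted p = 1.34e-06). ABCB1, the drug efflux pump P-glycoprotein, stood at 373, 343 and 453 CPM in LS1034 and 0.06904, 0.416 and 0 CPM in HT-29 (log2 fold change 10.95 ± 0.65, adjusted p = 1.77e-08). RUBCNL, a regulator of autophagosome maturation, stood at 129.8 ± 21.9 CPM against no count, a difference of at least 2846-fold, and CST7, a cystatin protease inhibitor, at 24.02 ± 8.06 against 0.0126 ± 0.0218 CPM. The photoreceptor cadherin CDHR1 stood at 21.4 ± 19.4 against 0.0126 ± 0.0218 CPM. The kinase HUNK stood at 48.6 ± 21.2 against 0.0321 ± 0.0555 CPM and the TNF receptor TNFRSF1B at 161 ± 84.6 against 0.115 ± 0.101 CPM. The glucose transporter SLC2A3 and the Wnt-linked genes APCDD1 and SMOC2 completed the 12 genes and are described with their groups.

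In HT-29 the largest ratio belonged to VSIG2, an immunoglobulin-domain membrane protein, at 0.0279, 0 and 0 CPM in LS1034 and 198, 134 and 129 CPM in HT-29 (16490.0-fold, counting interval 2959 to 651380.0, adjusted p = 1.66e-08). LY6E, a membrane-anchored protein of the Ly6 family, stood at 0.0279, 0.0387 and 0 CPM in LS1034 and 209.5, 203 and 382 CPM in HT-29 (11930.0-fold, counting interval 3302 to 98520.0, adjusted p = 1.10e-08). All 3 HT-29 libraries exceeded 100 CPM for both genes, and LS1034 had at most 3 counts of each. NMUR2, a receptor for neuromedin U, stood at 0.0258 ± 0.0447 against 167 ± 25.8 CPM. The LIM-domain protein CRIP2 stood at 0.0387 ± 0.06702 against 241 ± 76.6 CPM and LIMS2, an adaptor of focal adhesions, at 0.0501 ± 0.0567 against 121 ± 28.001 CPM. EHD2, a protein of caveolae, stood at 0.0723 ± 0.0699 against 131 ± 23.3 CPM (log2 fold change -10.41 ± 0.63, adjusted p = 2.20e-08). GABRP, a GABA receptor subunit, stood at 0.0573 ± 0.05805 against 98.7 ± 64.6 CPM. ADRA2A, an adrenergic receptor, stood at 0.0279 ± 0.0484 against 41.4 ± 9.897 CPM. CD200, an immune checkpoint ligand, stood at 0.0129 ± 0.0223 against 21.8 ± 11.996 CPM. NYNRIN, a retrovirus-derived gene, stood at 0.0687 ± 0.0877 against 90.3 ± 48.04 CPM. The aldo-keto reductase AKR1B10 and the transcription factor CREB3L1 are the other genes of this list and follow below.

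The homeobox factors CDX1, CDX2 and ISX were far higher in LS1034. CDX2, the factor that sets intestinal identity, stood at 126, 158 and 90.8 CPM in LS1034 and 4.004, 1.89 and 6.16 CPM in HT-29 (log2 fold change 4.99 ± 0.52, adjusted p = 3.29e-06). Its relative CDX1 stood at 272, 405 and 263 CPM in LS1034 and 1.899, 1.06 and 0.289 CPM in HT-29 (log2 fold change 8.06 ± 0.71, adjusted p = 1.78e-06). For both genes the lowest LS1034 library lay more than 10-fold above the highest HT-29 library. ISX, an intestinal homeobox factor that controls vitamin A uptake, stood at 16.5, 11.6 and 15.5 CPM in LS1034 and 0.0345, 0 and 0 CPM in HT-29 (1266-fold, counting interval 227 to 50044, adjusted p = 8.62e-05). HNF4A, a nuclear receptor of gut and liver, was also higher in LS1034 (122 ± 42.3 against 45.1 ± 15.4 CPM, log2 fold change 1.43 ± 0.35, adjusted p = 0.00799). Against them went FOXA1, a pioneer factor of endoderm and glands, at 1.48, 1.24 and 1.15 CPM in LS1034 and 184, 172 and 172 CPM in HT-29 (log2 fold change -7.07 ± 0.57, adjusted p = 3.21e-07). Lower ratios in the same direction belonged to HNF4G (27.8 ± 5.66 against 59.8 ± 8.55 CPM), NR5A2 (1.61 ± 0.342 against 11.9 ± 5.31 CPM), PDX1 (0.705 ± 0.2603 against 2.73 ± 0.221 CPM) and TCF21 (0.0605 ± 0.0819 against 1.17 ± 0.6699 CPM). The list of intestinal transcription factors was not limited to factors of the intestinal epithelium and includes TCF21. In all, 6 of its 21 tested members were called higher in LS1034 and 5 higher in HT-29 (52.4% called, with 6 and 3 without HT-29 replicate 2). 3 members were higher in HT-29 without LS1034 replicate 1, HT-29 replicate 1 or HT-29 replicate 3. HNF4G was not called without LS1034 replicate 1 (adjusted p = 0.0658), LS1034 replicate 2 (adjusted p = 0.135), LS1034 replicate 3 (adjusted p = 0.107), HT-29 replicate 1 (adjusted p = 0.0935), HT-29 replicate 2 (adjusted p = 0.0613) or HT-29 replicate 3 (adjusted p = 0.113). PDX1 was not called without LS1034 replicate 1 (adjusted p = 0.108), LS1034 replicate 2 (adjusted p = 0.101), HT-29 replicate 1 (adjusted p = 0.0682), HT-29 replicate 2 (adjusted p = 0.0629) or HT-29 replicate 3 (adjusted p = 0.06099).

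Of 26 tested genes of the brush border and of absorption, 12 were called higher in LS1034 and 4 higher in HT-29 (61.5% called, median log2 fold change 1.20). Shares of all tested genes were 11.4% and 11.2%, and without HT-29 replicate 2 the members called numbered 10 and 3. GUCY2C, the receptor for guanylin and for heat-stable enterotoxin, stood at 327, 225 and 212 CPM in LS1034 and 0.3797, 0.341 and 0 CPM in HT-29 (log2 fold change 9.77 ± 0.60, adjusted p = 2.43e-08). FABP1, the fatty acid binding protein of enterocytes and liver, stood at 272, 366 and 434 CPM in LS1034 and 10.4, 2.08 and 2.12 CPM in HT-29 (log2 fold change 6.17 ± 0.81, adjusted p = 6.53e-05). PHGR1, a small gut epithelial protein, stood at 529, 962 and 1364 CPM in LS1034 and 22.4, 17.7 and 38.4 CPM in HT-29 (log2 fold change 5.19 ± 0.49, adjusted p = 3.68e-06). The lines did not overlap for any of these 3 genes. The brush border motor MYO1A stood at 42.9 ± 11.8 against 1.201 ± 0.464 CPM (log2 fold change 5.204 ± 0.49, adjusted p = 3.09e-06). The microvillus protocadherin CDHR2 stood at 25.2 ± 3.695 against 0.0976 ± 0.0947 CPM. The chloride-bicarbonate exchanger SLC26A3 stood at 4.95 ± 3.51 against 0.0126 ± 0.0218 CPM. The guanylin precursor GUCA2A stood at 12.5 ± 9.22 against 1.12 ± 0.408 CPM and the microvillus bundler EPS8L3 at 298 ± 77.7 against 122 ± 8.604 CPM. VIL1, villin, stood at 435 ± 106 against 204 ± 15.1 CPM. The opposite direction was taken by CFTR, the apical chloride channel, at 0.447, 1.47 and 0 CPM in LS1034 and 306, 212 and 142 CPM in HT-29 (log2 fold change -8.301 ± 1.03, adjusted p = 2.02e-05). CA2, a carbonic anhydrase of the colon surface, stood at 0.0558, 0.271 and 0.231 CPM in LS1034 and 62.7, 44.5 and 37.99 CPM in HT-29 (log2 fold change -8.12 ± 0.57, adjusted p = 7.73e-08). DPP4, a brush border peptidase, was higher in HT-29 as well (78.9 ± 2.58 against 248 ± 113 CPM, log2 fold change -1.65 ± 0.45, adjusted p = 0.0132), as was GUCA2B, at a trace (0.0349 ± 0.0389 against 0.6904 ± 0.216 CPM). VIL1 was not called without LS1034 replicate 1 (adjusted p = 0.0569), LS1034 replicate 2 (adjusted p = 0.132), HT-29 replicate 1 (adjusted p = 0.07896), HT-29 replicate 2 (adjusted p = 0.0898) or HT-29 replicate 3 (adjusted p = 0.0943). VIL1 was also not called in the 12 cancer line libraries (adjusted p = 0.0566). DPP4 was not called without HT-29 replicate 1 (adjusted p = 0.0772). GUCA2B was not called without LS1034 replicate 1 (adjusted p = 0.107), LS1034 replicate 2 (adjusted p = 0.0904), HT-29 replicate 2 (adjusted p = 0.0595) or HT-29 replicate 3 (adjusted p = 0.05697). GUCA2B was also not called by DESeq2 (adjusted p = 0.0984).

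The promoters of CDX2, FABP1, ISX and CD44 are shown as examples, to let the reader see their sequence around the start site. Each is a 300-base window (250 bases before and 50 after the start) from RefSeq on GRCh38.p14, printed 5′ to 3′ on the strand of the gene, and not the hg19 build to which the reads were aligned. CDX2, FABP1 and ISX were higher in LS1034, and CD44, a Wnt target described below, was higher in HT-29. They lie at chr13:27969266-27969565 (CDX2, minus strand), chr2:88128013-88128312 (FABP1, minus strand), chr22:35065908-35066207 (ISX, plus strand) and chr11:35138921-35139220 (CD44, plus strand). Capitals mark the CDX core TTTATG or the TCF/LEF core CTTTGA on either strand, and these letters do not overlap each other here.
CDX2: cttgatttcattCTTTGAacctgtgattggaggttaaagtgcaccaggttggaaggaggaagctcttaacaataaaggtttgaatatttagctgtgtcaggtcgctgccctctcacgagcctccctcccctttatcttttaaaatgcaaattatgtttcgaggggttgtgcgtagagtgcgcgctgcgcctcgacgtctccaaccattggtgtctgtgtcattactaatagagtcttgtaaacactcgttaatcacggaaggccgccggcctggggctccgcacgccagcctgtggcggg
FABP1: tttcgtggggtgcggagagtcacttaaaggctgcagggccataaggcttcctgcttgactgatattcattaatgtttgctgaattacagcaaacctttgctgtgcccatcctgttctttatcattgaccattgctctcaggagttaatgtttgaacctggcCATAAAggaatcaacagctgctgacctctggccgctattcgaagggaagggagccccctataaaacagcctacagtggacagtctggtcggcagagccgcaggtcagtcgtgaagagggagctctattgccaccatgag
ISX: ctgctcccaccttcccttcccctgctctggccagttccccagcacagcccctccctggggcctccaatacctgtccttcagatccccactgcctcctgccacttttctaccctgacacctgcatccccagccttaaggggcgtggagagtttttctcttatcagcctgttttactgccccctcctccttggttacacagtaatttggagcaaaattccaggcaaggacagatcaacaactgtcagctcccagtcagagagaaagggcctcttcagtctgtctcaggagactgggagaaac
CD44: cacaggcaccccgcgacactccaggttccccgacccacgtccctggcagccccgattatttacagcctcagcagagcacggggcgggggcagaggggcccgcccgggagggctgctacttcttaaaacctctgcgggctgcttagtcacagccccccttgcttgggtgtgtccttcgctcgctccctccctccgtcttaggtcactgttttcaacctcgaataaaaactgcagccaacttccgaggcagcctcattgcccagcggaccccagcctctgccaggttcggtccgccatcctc
The FABP1 window held 1 CDX core on the opposite strand, 89 bases before the start, and the CDX2 window 1 TCF/LEF core, 238 bases before the start. The ISX and CD44 windows held neither. TTTATG on either strand was found in 10.6% of all 35116 windows in the table and in 6.39% of the windows of tested genes. It was found in 8.01% of the windows of genes called higher in LS1034 and in 6.34% of those of genes called higher in HT-29. CTTTGA was found in 12.9% of all windows and 9.58% of those of tested genes, and in 12.2% and 9.08% of those of genes called higher in LS1034 and in HT-29. These shares carry no test. Windows were found for 11556 of the tested genes, and a match of letters is not a bound site.

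**Figure D3:**
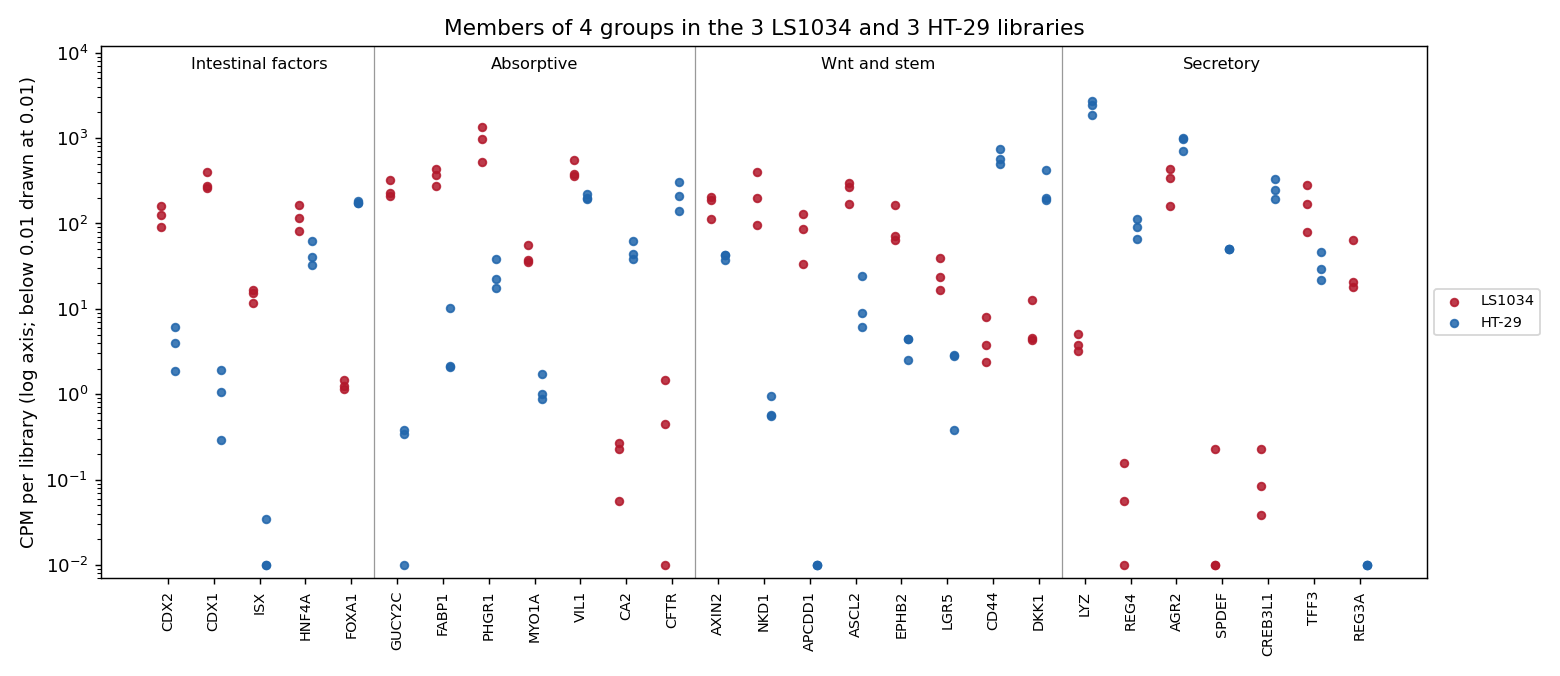
CPM per library (log axis, values below 0.01 drawn at 0.01) of members of 4 groups, with the 3 LS1034 libraries in red and the 3 HT-29 libraries in blue. CDX2, CDX1 and GUCY2C lie higher in all LS1034 libraries, and FOXA1, CFTR, CD44, LYZ and CREB3L1 higher in all HT-29 libraries.

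Feedback genes and stem cell markers of the Wnt pathway had the largest share of called members among the 25 pathway lists. Of 29 tested, 17 were called higher in LS1034 and 4 higher in HT-29, against 11.4% and 11.2% of all tested genes, and the counts were 17 and 4 without HT-29 replicate 2. The list median was 1.40. Among the feedback inhibitors, AXIN2, a scaffold of the beta-catenin destruction complex, stood at 189.8, 205 and 113 CPM in LS1034 and 42.1, 42.2 and 36.9 CPM in HT-29 (log2 fold change 2.07 ± 0.28, adjusted p = 5.45e-05). NKD1, a Dishevelled antagonist, stood at 401, 196 and 97.1 CPM in LS1034 and 0.552, 0.946 and 0.577 CPM in HT-29 (log2 fold change 8.35 ± 0.66, adjusted p = 2.82e-07). NKD1 was at or below 1 CPM in all HT-29 libraries, whereas AXIN2 was clearly present in both lines. APCDD1, a membrane inhibitor of Wnt receptors, stood at 129, 85.5 and 33.6 CPM in LS1034 and no count in HT-29 (at least 1817-fold, adjusted p = 8.60e-07). The deacylase NOTUM, which inactivates Wnt ligands, stood at 13.3 ± 9.69 against 2.14 ± 1.53 CPM. NKD2 stood at 12.9 ± 2.13 against 2.37 ± 0.315 CPM. The receptor ligase RNF43, which removes Frizzled receptors, was not called (378 ± 78.4 against 228 ± 13.2 CPM). NOTUM was not called without LS1034 replicate 1 (adjusted p = 0.0984) or HT-29 replicate 1 (adjusted p = 0.0528). NOTUM was also not called in the 6 libraries with the replicate block (adjusted p = 0.0794).

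Several stem cell genes of this list were higher in LS1034. ASCL2, the transcription factor of crypt base stem cells, stood at 167, 299 and 270.1 CPM in LS1034 and 8.87, 6.17 and 24.2 CPM in HT-29 (log2 fold change 4.25 ± 0.52, adjusted p = 3.38e-05). The R-spondin receptor LGR5 stood at 39.03, 23.3 and 16.4 CPM in LS1034 and 2.83, 2.88 and 0.385 CPM in HT-29 (log2 fold change 3.61 ± 0.61, adjusted p = 3.90e-04). SMOC2, a matrix protein of crypt base cells, stood at 126 ± 92.99 against 0.09402 ± 0.0584 CPM (log2 fold change 10.33 ± 0.99, adjusted p = 3.95e-06). The crypt guidance receptor EPHB2 stood at 99.6 ± 55.8 against 3.78 ± 1.09 CPM (log2 fold change 4.73 ± 0.41, adjusted p = 6.39e-07). The homeobox factor PROX1 stood at 139 ± 63.1 against 6.86 ± 3.99 CPM (log2 fold change 4.32 ± 0.60, adjusted p = 6.29e-05). OLFM4, a secreted crypt base glycoprotein, had 1.37, 22.6 and 3.46 CPM in LS1034 and no count in HT-29, with most of the LS1034 level in replicate 2. Of the nuclear partners of beta-catenin, LEF1 (12.5 ± 6.002 against 0.0987 ± 0.116 CPM, log2 fold change 6.68 ± 0.76, adjusted p = 7.87e-06) and TCF7 (125 ± 7.41 against 53.1 ± 15.9 CPM, log2 fold change 1.24 ± 0.39, adjusted p = 0.0277) were higher in LS1034 and TCF7L2 was not called (35.2 ± 12.5 against 59.3 ± 21.6 CPM). The proliferation genes CCND1 (403 ± 86.01 against 183 ± 25.6 CPM, log2 fold change 1.14 ± 0.29, adjusted p = 0.00857) and MYC (506 ± 170.1 against 412 ± 158 CPM, not called) differed less than these. OLFM4 was not called by DESeq2 (adjusted p = 0.0995). TCF7 was not called without LS1034 replicate 1 (adjusted p = 0.0663), LS1034 replicate 2 (adjusted p = 0.0642), LS1034 replicate 3 (adjusted p = 0.0504), HT-29 replicate 1 (adjusted p = 0.113) or HT-29 replicate 2 (adjusted p = 0.0791).

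The 4 Wnt-linked members higher in HT-29 were CD44, DKK1, LRIG1 and PROM1. CD44, a hyaluronan receptor, stood at 8.096, 3.79 and 2.38 CPM in LS1034 and 744, 573 and 501 CPM in HT-29 (log2 fold change -6.97 ± 0.45, adjusted p = 4.07e-08). The secreted Wnt inhibitor DKK1 stood at 4.33, 4.57 and 12.6 CPM in LS1034 and 196, 427 and 189 CPM in HT-29 (log2 fold change -5.26 ± 0.55, adjusted p = 3.68e-06). The ERBB regulator LRIG1 stood at 2.66 ± 0.744 against 53.3 ± 3.37 CPM (log2 fold change -4.31 ± 0.36, adjusted p = 4.60e-07). The stem cell membrane protein PROM1 stood at 34.8 ± 15.5 against 253 ± 51.7 CPM (log2 fold change -2.86 ± 0.53, adjusted p = 8.64e-04). For CD44 the lowest HT-29 library lay far above the highest LS1034 library.

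Secretory and defence products were split between the lines, with different members in each. Of 26 tested, 8 were called higher in HT-29 and 5 higher in LS1034 (50% called; 8 and 4 without HT-29 replicate 2). LYZ, lysozyme, stood at 3.74, 5.03 and 3.23 CPM in LS1034 and 2706, 1885 and 2471 CPM in HT-29 (log2 fold change -9.19 ± 0.54, adjusted p = 5.61e-08), so that LS1034 held 0.170% of the HT-29 level, a share within the range of HT-29 markers in LS1034 libraries given above. REG4, a secreted intestinal lectin, stood at 0.0558, 0.155 and 0 CPM in LS1034 and 91.8, 112 and 65.7 CPM in HT-29 (log2 fold change -10.04 ± 0.59, adjusted p = 5.61e-08). The folding factors AGR2 and AGR3, which assist mucin production, stood at 312 ± 138 against 891 ± 164 CPM and 0.373 ± 0.4103 against 63.2 ± 19.2 CPM. The kallikrein proteases KLK10 and KLK11 stood at 36.2 ± 12.5 against 217 ± 26.3 CPM and 4.72 ± 3.103 against 173 ± 38.9 CPM. The membrane mucin MUC12 stood at 0.288 ± 0.332 against 6.47 ± 1.98 CPM. Higher in LS1034 were the trefoil peptides TFF3, at 170.5, 79.9 and 281 CPM in LS1034 and 21.9, 29.2 and 46.9 CPM in HT-29 (log2 fold change 2.44 ± 0.51, adjusted p = 0.00202), and TFF2 (59.5 ± 28.9 against 0.977 ± 0.765 CPM, log2 fold change 6.04 ± 0.72, adjusted p = 2.98e-05). The antimicrobial lectin REG3A stood at 63.5, 18.3 and 20.4 CPM in LS1034 and no count in HT-29 (at least 747-fold, adjusted p = 5.74e-05). The trypsin inhibitor SPINK1 stood at 505 ± 307 against 106 ± 32.5 CPM. LCN2, an iron-binding defence protein, was not called (78.8, 2.399 and 50.8 CPM in LS1034 and 279, 191 and 151 CPM in HT-29), with 1 LS1034 library far below the other two. AGR2 was not called without LS1034 replicate 1 (adjusted p = 0.0533), LS1034 replicate 2 (adjusted p = 0.0749), HT-29 replicate 1 (adjusted p = 0.0521) or HT-29 replicate 3 (adjusted p = 0.0557). SPINK1 was not called without LS1034 replicate 3 (adjusted p = 0.0762), HT-29 replicate 2 (adjusted p = 0.0509) or HT-29 replicate 3 (adjusted p = 0.0537). LCN2 was called in the 12 cancer line libraries with the replicate block (adjusted p = 0.00827).

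Several regulators of the secretory lineage were higher in HT-29. CREB3L1, a membrane-bound factor of the secretory pathway, stood at 0.0837, 0.0387 and 0.231 CPM in LS1034 and 332, 249.8 and 195 CPM in HT-29 (log2 fold change -11.31 ± 0.61, adjusted p = 1.13e-08). SPDEF, the factor that matures goblet cells, stood at 0, 0 and 0.231 CPM in LS1034 and 49.8, 49.6 and 50.9 CPM in HT-29 (log2 fold change -9.96 ± 0.99, adjusted p = 2.19e-06). Both were at or below 0.231 CPM in every LS1034 library. ATOH1, which commits cells to the secretory fate, stood at 0.0258 ± 0.0447 against 3.29 ± 2.93 CPM. The enteroendocrine factor NEUROG3 stood at 0.0885 ± 0.0794 against 3.45 ± 1.901 CPM and the Notch target HES1 at 62.3, 61.6 and 58.4 CPM in LS1034 and 61.1, 489 and 72.05 CPM in HT-29 (log2 fold change -1.77 ± 0.59, adjusted p = 0.0369). HES1 was high in HT-29 replicate 2 alone. Of 19 tested regulators and hormones, 7 were called higher in HT-29 and 2 in LS1034 (47.4% called; 4 and 2 without HT-29 replicate 2). 1 member was higher in LS1034 without LS1034 replicate 2. The members higher in LS1034 were the enteroendocrine and eye factor PAX6 (33.6 ± 11.7 against 1.804 ± 0.658 CPM, log2 fold change 4.21 ± 0.49, adjusted p = 1.08e-05) and the Notch ligand DLL4 (31.5 ± 28.3 against 8.01 ± 2.42 CPM, log2 fold change 1.98 ± 0.51, adjusted p = 0.00893). HES1 was not called without LS1034 replicate 1 (adjusted p = 0.101), LS1034 replicate 2 (adjusted p = 0.08796), LS1034 replicate 3 (adjusted p = 0.103) or HT-29 replicate 2 (adjusted p = 0.896). HES1 was also not called in the 6 libraries alone (adjusted p = 0.0874), in the 6 libraries with the replicate block (adjusted p = 0.236) or in the 12 cancer line libraries with the replicate block (adjusted p = 0.07699). DLL4 was not called without LS1034 replicate 2 (adjusted p = 0.101). DLL4 was also not called in the 6 libraries with the replicate block (adjusted p = 0.0691).

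Enzymes listed for mucin-type and Lewis glycans also differed in both directions, with 10 of 31 called higher in LS1034 and 7 higher in HT-29 (54.8% called, with 7 and 6 without HT-29 replicate 2). The list also held enzymes of other glycans, such as A4GALT and FUT8. ST3GAL1, which caps core glycans with sialic acid, stood at 0.642, 2.59 and 0 CPM in LS1034 and 455, 543 and 461 CPM in HT-29 (log2 fold change -8.72 ± 0.77, adjusted p = 7.22e-07). GCNT3, the core branching enzyme of mucins, stood at 59.5, 8.43 and 94.2 CPM in LS1034 and 901, 959 and 533 CPM in HT-29 (log2 fold change -3.89 ± 0.86, adjusted p = 0.004099). A4GALT, which makes the Gb3 glycolipid, stood at 0.193 ± 0.335 against 15.6 ± 3.17 CPM. Higher in LS1034 were the initiating transferases GALNT5 (70.9 ± 30.7 against 8.53 ± 4.29 CPM, log2 fold change 3.04 ± 0.41, adjusted p = 4.53e-05) and GALNT6 (97.7 ± 30.7 against 11.4 ± 4.62 CPM, log2 fold change 3.097 ± 0.42, adjusted p = 4.85e-05). So were 5 fucosyltransferases: FUT1 (43.8 ± 32.1 against 13.5 ± 4.71 CPM), FUT2 (42.1 ± 5.44 against 16.7 ± 7.19 CPM), FUT3 (37.2 ± 15.2 against 4.0999 ± 3.71 CPM), FUT6 (15.999 ± 4.802 against 0.0378 ± 0.0655 CPM) and FUT8 (25.5 ± 8.37 against 7.205 ± 1.95 CPM). FUT3 and FUT6 are near-identical neighbours, and the counting may have split reads between them. FUT1 was not called without LS1034 replicate 3 (adjusted p = 0.1505), HT-29 replicate 2 (adjusted p = 0.0741) or HT-29 replicate 3 (adjusted p = 0.0564). FUT2 was not called without LS1034 replicate 1 (adjusted p = 0.0836), LS1034 replicate 2 (adjusted p = 0.0655) or HT-29 replicate 2 (adjusted p = 0.108).

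Most junction and keratin genes were not called, with 7 of 36 tested higher in LS1034 and 4 higher in HT-29, or 30.6% called against 22.6% of all genes (7 and 3 without HT-29 replicate 2). 2 members were higher in HT-29 without LS1034 replicate 1. The largest difference belonged to CDH17, the intestinal cadherin, at 2046, 881 and 1905 CPM in LS1034 and 5.04, 3.63 and 3.66 CPM in HT-29 (log2 fold change 8.605 ± 0.67, adjusted p = 5.96e-07). The desmosomal cadherin DSG2 stood at 644 ± 54.3 against 206 ± 24.2 CPM (log2 fold change 1.64 ± 0.29, adjusted p = 6.07e-04). Its relative DSC2 stood at 198 ± 56.9 against 72.04 ± 13.8 CPM (log2 fold change 1.46 ± 0.45, adjusted p = 0.0284). The plaque protein DSP stood at 316 ± 40.8 against 115 ± 60.2 CPM (log2 fold change 1.46 ± 0.36, adjusted p = 0.00739). Its partner PKP2 stood at 481 ± 26.7 against 112 ± 6.47 CPM (log2 fold change 2.099 ± 0.24, adjusted p = 9.21e-06). The keratin KRT23 stood at 160.4 ± 57.3 against 9.49 ± 4.17 CPM (log2 fold change 4.07 ± 0.57, adjusted p = 6.29e-05). CDH17 and these 5 were higher in LS1034. Higher in HT-29 were the pore-forming claudin CLDN2 (40.2 ± 19.8 against 134 ± 73.6 CPM, log2 fold change -1.74 ± 0.52, adjusted p = 0.0237) and the tight junction scaffold TJP3 (29.8 ± 4.11 against 88.9 ± 15.8 CPM, log2 fold change -1.58 ± 0.40, adjusted p = 0.00998). The keratins KRT13 (0.818 ± 0.5501 against 9.13 ± 4.06 CPM) and KRT17 (0.223, 0.426 and 1.998 CPM in LS1034 and 3.901, 38.7 and 2.405 CPM in HT-29) were higher there too, the last with most of its level in HT-29 replicate 2. CDH1, the adherens junction cadherin, was not called (898 ± 118 against 488 ± 124 CPM). DSC2 was not called without LS1034 replicate 1 (adjusted p = 0.0822) or HT-29 replicate 3 (adjusted p = 0.102). CLDN2 was not called without LS1034 replicate 1 (adjusted p = 0.0926) or HT-29 replicate 3 (adjusted p = 0.123). KRT17 was not called without LS1034 replicate 1 (adjusted p = 0.0549), LS1034 replicate 2 (adjusted p = 0.0514) or HT-29 replicate 2 (adjusted p = 0.208). KRT17 was also not called in the 6 libraries with the replicate block (adjusted p = 0.0707).

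Among surface glycoproteins, galectins and tetraspanins, 5 of 25 tested were called higher in LS1034 and 6 higher in HT-29 (44% called; 7 and 5 without HT-29 replicate 2). CEACAM5, the carcinoembryonic antigen, stood at 359, 140.2 and 549 CPM in LS1034 and 17.98, 26.3 and 8.56 CPM in HT-29 (log2 fold change 4.300 ± 0.61, adjusted p = 1.36e-04). CEACAM6 stood at 599, 339 and 892 CPM in LS1034 and 141, 119 and 101 CPM in HT-29 (log2 fold change 2.34 ± 0.41, adjusted p = 7.25e-04). Both genes are similar in sequence, and reads may be shared between them. LGALS3, a galectin of the colon surface, stood at 2449 ± 894 against 257 ± 57.9 CPM (log2 fold change 3.26 ± 0.35, adjusted p = 4.46e-06). The tetraspanin CD9 stood at 2447, 2803 and 2323 CPM in LS1034 and 298, 263 and 374 CPM in HT-29 (log2 fold change 3.02 ± 0.24, adjusted p = 2.92e-07). The lines did not overlap for either gene. TSPAN3 stood at 92.99, 45.8 and 29.8 CPM in LS1034 and 1585, 1055 and 1231 CPM in HT-29 (log2 fold change -4.52 ± 0.41, adjusted p = 9.19e-07). TSPAN13 stood at 9.28 ± 3.89 against 208 ± 31.02 CPM (log2 fold change -4.48 ± 0.36, adjusted p = 2.96e-07) and the galectin LGALS2 at 0.0994 ± 0.08504 against 34.9 ± 25.9 CPM (log2 fold change -8.41 ± 1.00, adjusted p = 1.28e-05). These 3 were higher in HT-29, as was TSPAN1 (247 ± 60.7 against 681 ± 111 CPM). TSPAN1 was not called without LS1034 replicate 1 (adjusted p = 0.159), LS1034 replicate 2 (adjusted p = 0.0819), LS1034 replicate 3 (adjusted p = 0.0758), HT-29 replicate 1 (adjusted p = 0.104), HT-29 replicate 2 (adjusted p = 0.0561) or HT-29 replicate 3 (adjusted p = 0.0918).

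The outputs of the MAPK pathway, which lies below growth factor receptors and BRAF, were called in both directions. Of 21 tested, 3 were higher in LS1034 and 5 higher in HT-29 (38.1% called against 22.6% of all genes; 3 and 4 without HT-29 replicate 2), with a median of -0.61. The feedback phosphatase DUSP6 stood at 99.4, 59.004 and 113 CPM in LS1034 and 175, 133 and 105 CPM in HT-29, with overlapping libraries. DUSP4 stood at 15.7 ± 13.7 against 23.5 ± 12.5 CPM. The receptor feedback genes SPRY2 and SPRY4 stood at 80.6 ± 10.9 against 53.5 ± 13.3 CPM and 37.97 ± 6.596 against 44.01 ± 27.1 CPM. The ETS factor ETV4 stood at 170.2 ± 46.97 against 127 ± 7.75 CPM, and none of these was called. Its relative ETV5 was higher in HT-29 (18.6 ± 10.8 against 114 ± 32.4 CPM, log2 fold change -2.62 ± 0.49, adjusted p = 7.93e-04). So was ETV1 (1.52 ± 0.399 against 16.3 ± 6.14 CPM, log2 fold change -3.41 ± 0.74, adjusted p = 0.00281). PHLDA1, an immediate early gene of growth factor signals, was higher in LS1034 (1232, 824 and 1269 CPM in LS1034 and 98.1, 173 and 139 CPM in HT-29; log2 fold change 3.02 ± 0.46, adjusted p = 1.56e-04). FOS stood at 10.2, 10.6 and 17.6 CPM in LS1034 and 179, 595 and 45.6 CPM in HT-29, higher in HT-29 (adjusted p = 2.32e-04) with widely spread HT-29 libraries.

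Of 13 tested EGF family ligands and receptors, 2 were called, both higher in HT-29: the receptor EGFR, at 22.4, 17.1 and 26.4 CPM in LS1034 and 85.8, 128 and 56.4 CPM in HT-29 (log2 fold change -2.04 ± 0.35, adjusted p = 3.91e-04), and the receptor regulator LRIG1. Without HT-29 replicate 2, 1 member was called higher in LS1034 as well. The ligands AREG (79.2 ± 44.8 against 37.6 ± 17.5 CPM) and EREG (369.9 ± 97.6 against 252 ± 179 CPM) and the receptor ERBB2 (92.01 ± 5.896 against 178 ± 53.8 CPM) were not called. The share called was 15.4%, below the 22.6% of all genes. ERBB2 was called without HT-29 replicate 3 (adjusted p = 0.00956).

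Ligands, receptors, mediators and targets of the TGF-beta and BMP pathway differed between the lines, with 11 of 33 called higher in LS1034 and 7 higher in HT-29 (54.5% called; 12 and 6 without HT-29 replicate 2). Of the ligands, BMP4 was higher in LS1034 (819 ± 173 against 309.5 ± 64.2 CPM, log2 fold change 1.404 ± 0.34, adjusted p = 0.00653). TGFB2 (0.439 ± 0.662 against 30.8 ± 5.79 CPM, log2 fold change -5.899 ± 0.80, adjusted p = 4.80e-05), TGFB1 (1.28 ± 0.459 against 8.74 ± 4.46 CPM) and BMP2 (3.45 ± 1.51 against 24.3 ± 4.68 CPM) were higher in HT-29. The receptor TGFBR1 was higher in LS1034 (148 ± 55.8 against 41.1 ± 9.26 CPM, log2 fold change 1.85 ± 0.45, adjusted p = 0.006003), and TGFBR2 was not called (419 ± 106 against 236 ± 17.3 CPM). SMAD4, the shared mediator of both branches, stood at 98.2, 71.2 and 67.5 CPM in LS1034 and 6.904, 13.5 and 4.14 CPM in HT-29 (log2 fold change 3.25 ± 0.44, adjusted p = 5.07e-05). Every LS1034 library lay far above every HT-29 library. SMAD3, which carries the TGF-beta signal, was higher in HT-29 (51.6 ± 13.8 against 143 ± 73.4 CPM, log2 fold change -1.47 ± 0.38, adjusted p = 0.00856), as was the inhibitor SMAD6 (7.42 ± 1.91 against 29.8 ± 3.29 CPM, log2 fold change -1.998 ± 0.35, adjusted p = 4.73e-04). Among the target genes, TGFBI, a secreted matrix protein, stood at 3277, 1366 and 2667 CPM in LS1034 and 41.6, 37.2 and 44.9 CPM in HT-29 (log2 fold change 5.89 ± 0.62, adjusted p = 3.76e-06). The decoy receptor BAMBI stood at 149 ± 39.9 against 3.16 ± 0.651 CPM (log2 fold change 5.55 ± 0.47, adjusted p = 5.52e-07). The BMP target ID3 stood at 162, 188 and 171 CPM in LS1034 and 0.449, 16.2 and 0.289 CPM in HT-29 (log2 fold change 4.898 ± 0.96, adjusted p = 0.00129), with HT-29 replicate 2 well above the other HT-29 libraries. The related ID1 and ID2 were not called (202 ± 48.8 against 116 ± 102 CPM and 190.3 ± 32.7 against 169 ± 33.5 CPM). SMAD3 was not called without LS1034 replicate 3 (adjusted p = 0.0551) or HT-29 replicate 2 (adjusted p = 0.0774). TGFBR2 was called without LS1034 replicate 2 (adjusted p = 0.0411). ID1 was called without HT-29 replicate 2 (adjusted p = 0.00935).

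Class I antigen presentation was higher in LS1034 in 9 of 19 tested members and higher in HT-29 in 1 (52.6% called; 8 and 1 without HT-29 replicate 2). B2M, the light chain of class I molecules, stood at 8328, 4222 and 7645 CPM in LS1034 and 2197, 1213 and 2012 CPM in HT-29 (log2 fold change 1.897 ± 0.45, adjusted p = 0.00548). NLRC5, the class I transactivator, stood at 80.2, 101 and 103 CPM in LS1034 and 3.38, 2.42 and 3.46 CPM in HT-29 (log2 fold change 4.94 ± 0.54, adjusted p = 5.32e-06). The peptide transporter TAP1 stood at 124 ± 10.3 against 11.1 ± 3.94 CPM (log2 fold change 3.49 ± 0.35, adjusted p = 2.83e-06). The immunoproteasome subunits PSMB8 and PSMB9 stood at 91.2 ± 25.5 against 12.3 ± 7.07 CPM and 65.4 ± 17.8 against 2.66 ± 1.61 CPM (log2 fold change 4.64 ± 0.56, adjusted p = 1.45e-05). The libraries of the lines did not overlap for these genes. Of the class I chains, HLA-B stood at 17.02 ± 9.38 against 4.69 ± 1.26 CPM and HLA-E at 60.9 ± 26.03 against 23.9 ± 1.58 CPM, both higher in LS1034. These genes form a family of similar sequences between which reads may be shared, so their single values are uncertain. CD74, the class II invariant chain, was the 1 called of 8 tested class II genes, also without HT-29 replicate 2 (97.5, 106 and 110.0 CPM in LS1034 and 3.87, 1.25 and 2.69 CPM in HT-29; log2 fold change 5.33 ± 0.71, adjusted p = 3.89e-05). The share of class II genes called was 12.5%, below the 22.6% of all tested genes. HLA-B was not called without LS1034 replicate 1 (adjusted p = 0.0757), LS1034 replicate 3 (adjusted p = 0.185), HT-29 replicate 1 (adjusted p = 0.114), HT-29 replicate 2 (adjusted p = 0.131) or HT-29 replicate 3 (adjusted p = 0.0719). HLA-B was also not called with library size alone (adjusted p = 0.0523), in the 12 cancer line libraries (adjusted p = 0.0909) or in the 12 cancer line libraries with the replicate block (adjusted p = 0.0658). HLA-E was not called without LS1034 replicate 3 (adjusted p = 0.0769).

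Of 36 interferon-stimulated genes, 7 were higher in LS1034 and 2 higher in HT-29, and the 25.0% called lay near the 22.6% of all genes (5 and 2 without HT-29 replicate 2). 4 members were higher in LS1034 without LS1034 replicate 1. IFITM1, a membrane restriction factor, stood at 331, 276 and 162 CPM in LS1034 and 1.76, 0.681 and 2.79 CPM in HT-29 (log2 fold change 7.27 ± 0.64, adjusted p = 7.22e-07). The DNA sensor IFI16 stood at 29.7 ± 20.7 against 0.367 ± 0.273 CPM (log2 fold change 6.53 ± 0.79, adjusted p = 1.47e-05). BST2, the virus tether, was higher in HT-29 (15.3 ± 13.3 against 124 ± 69.3 CPM, log2 fold change -3.005 ± 0.57, adjusted p = 0.00103). Among chemokines and NF-kB targets, 5 of 25 were higher in each line (40% called against 22.6% of all genes; 6 in LS1034 and 3 in HT-29 without HT-29 replicate 2). 2 members were higher in HT-29 without LS1034 replicate 1. 3 members were higher in HT-29 without LS1034 replicate 2. The cytokine IL32 was higher in LS1034 (139, 125 and 381 CPM in LS1034 and 2.24, 0.757 and 0.673 CPM in HT-29; log2 fold change 7.38 ± 0.64, adjusted p = 5.90e-07). So were the cytokine IL33 (280.0 ± 48.7 against 7.07 ± 4.47 CPM, log2 fold change 5.28 ± 0.71, adjusted p = 4.71e-05) and the chemokine CCL24 (17.3 ± 9.87 against 0.0252 ± 0.0437 CPM). TNFAIP2 (1.47 ± 0.677 against 111 ± 3.15 CPM, log2 fold change -6.18 ± 0.43, adjusted p = 7.00e-08) and the chemokine CXCL16 (10.3 ± 2.42 against 37.6 ± 8.78 CPM, log2 fold change -1.87 ± 0.34, adjusted p = 7.14e-04) were higher in HT-29.

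Genes of redox control and drug handling were higher in HT-29 in 18 of 38 tested members and higher in LS1034 in 5 (60.5% called; 16 and 5 without HT-29 replicate 2), with a median of -1.25. AKR1B10, a retinal and aldehyde reductase, stood at 0.0558, 0.155 and 0 CPM in LS1034 and 224, 444 and 466 CPM in HT-29 (log2 fold change -12.11 ± 0.71, adjusted p = 1.66e-08). ALDH1A1, a retinaldehyde dehydrogenase used as a stem cell marker, stood at 20.96, 22.2 and 19.8 CPM in LS1034 and 448, 409 and 524 CPM in HT-29 (log2 fold change -4.45 ± 0.43, adjusted p = 1.64e-06). CYP1B1, a hydroxylase of the aryl hydrocarbon response, stood at 0.0609 ± 0.0825 against 74.8 ± 17.5 CPM (log2 fold change -10.01 ± 0.69, adjusted p = 5.68e-08). Of the enzymes that handle fluoropyrimidines, the drugs used against this cancer, TYMS, thymidylate synthase, stood at 27.9, 40.4 and 19.7 CPM in LS1034 and 79.3, 104 and 228 CPM in HT-29 (log2 fold change -2.22 ± 0.39, adjusted p = 5.54e-04). DPYD, which degrades fluorouracil, stood at 0.1799 ± 0.1602 against 19.5 ± 3.91 CPM (log2 fold change -6.96 ± 0.87, adjusted p = 2.04e-05). Both were higher in HT-29. The efflux pumps divided: ABCG2 (4.57 ± 2.26 against 84.7 ± 35.3 CPM, log2 fold change -4.21 ± 0.43, adjusted p = 2.69e-06) and ABCC3 (128 ± 32.6 against 467 ± 116 CPM, log2 fold change -1.87 ± 0.32, adjusted p = 4.32e-04) were higher in HT-29 and ABCB1, given above, in LS1034. The thioredoxin reductase TXNRD1 was higher in HT-29 (186 ± 8.99 against 513 ± 144 CPM, log2 fold change -1.46 ± 0.25, adjusted p = 3.51e-04). The quinone reductase NQO1 was not called (1194 ± 259 against 713 ± 63.9 CPM). UGT1A10 (0.885 ± 0.542 against 95.5 ± 16.9 CPM) and UGT1A6 (4.701 ± 1.53 against 17.8 ± 1.95 CPM) share exons and are near-identical in part, so their single values are uncertain.

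Glycolysis and hypoxia genes that were called went mainly in 1 direction: 15 of 29 were called higher in HT-29 and 1 higher in LS1034 (55.2% called, median -1.13; 14 and 1 without HT-29 replicate 2). 8 members were higher in HT-29 without LS1034 replicate 3. 6 members were higher in HT-29 without HT-29 replicate 1. The carbonic anhydrases of hypoxic cells stood at 12.3, 20.4 and 7.61 CPM in LS1034 and 449, 169 and 308 CPM in HT-29 for CA9 (log2 fold change -4.52 ± 0.54, adjusted p = 1.38e-05) and 18.03 ± 7.897 against 309 ± 94.1 CPM for CA12 (log2 fold change -4.09 ± 0.47, adjusted p = 8.59e-06). NDRG1, a hypoxia-induced stress gene, stood at 26.9, 3.87 and 5.69 CPM in LS1034 and 337, 101 and 13.7 CPM in HT-29 (log2 fold change -3.62 ± 0.88, adjusted p = 0.00596), with overlap of the lines. HT-29 also had the higher level of several glycolytic enzymes. HK1, a hexokinase, stood at 49.2 ± 5.204 against 183 ± 13.2 CPM (log2 fold change -1.896 ± 0.24, adjusted p = 2.12e-05). PFKP, a phosphofructokinase, stood at 60.02 ± 29.3 against 292 ± 37.2 CPM (log2 fold change -2.28 ± 0.38, adjusted p = 3.33e-04). PGK1 stood at 918 ± 94.8 against 1865 ± 819.9 CPM (log2 fold change -1.02 ± 0.28, adjusted p = 0.0121). ENO1, an enolase, stood at 1378 ± 389 against 3019 ± 390.3 CPM (log2 fold change -1.13 ± 0.34, adjusted p = 0.0208). The lactate exporter SLC16A3 stood at 7.28 ± 3.801 against 43.7 ± 36.7 CPM (log2 fold change -2.58 ± 0.66, adjusted p = 0.00889). The member in the other direction was SLC2A3, the glucose transporter GLUT3, at 588, 407 and 750.2 CPM in LS1034 and 0, 1.21 and 0.0962 CPM in HT-29 (log2 fold change 10.22 ± 1.07, adjusted p = 3.92e-06), while SLC2A1, GLUT1, was not called (684 ± 352 against 910.5 ± 209 CPM). The culture medium of each line is not stated, and its part in these levels cannot be told apart from the line. PGK1 was not called without LS1034 replicate 1 (adjusted p = 0.0683) or HT-29 replicate 1 (adjusted p = 0.131). PGK1 was also not called with library size alone (log2 fold change -0.99), in the 6 libraries with the replicate block (adjusted p = 0.0518) or in the 12 cancer line libraries with the replicate block (log2 fold change -0.99). ENO1 was not called without LS1034 replicate 1 (adjusted p = 0.132), LS1034 replicate 3 (adjusted p = 0.0686), HT-29 replicate 1 (adjusted p = 0.0532) or HT-29 replicate 3 (adjusted p = 0.06199). SLC16A3 was not called without LS1034 replicate 3 (adjusted p = 0.0519) or HT-29 replicate 1 (adjusted p = 0.0707).

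In the sterol and fatty acid list, 3 of 27 were higher in each line, and the 22.2% called lay near the 22.6% of all genes (3 in LS1034 and 2 in HT-29 without HT-29 replicate 2). 8 members were higher in HT-29 without LS1034 replicate 2. SQLE, an enzyme of cholesterol synthesis (85.9 ± 47.7 against 472 ± 116 CPM, log2 fold change -2.46 ± 0.43, adjusted p = 5.49e-04), INSIG1, a sterol sensor (63.7 ± 38.8 against 296 ± 68.1 CPM, log2 fold change -2.22 ± 0.51, adjusted p = 0.00407), and DHCR7 (159 ± 101 against 404 ± 49.2 CPM) were higher in HT-29. The fatty acid desaturases FADS1 (60.02, 63.6 and 45.6 CPM in LS1034 and 4.11, 11.7 and 2.98 CPM in HT-29; log2 fold change 3.15 ± 0.41, adjusted p = 3.51e-05) and FADS2 (10.97 ± 2.66 against 1.099 ± 0.906 CPM, log2 fold change 3.23 ± 0.45, adjusted p = 6.27e-05) were higher in LS1034. With the replicate block, 6 members were called higher in HT-29 and 3 higher in LS1034. DHCR7 was not called without LS1034 replicate 1 (adjusted p = 0.218), LS1034 replicate 3 (adjusted p = 0.205), HT-29 replicate 1 (adjusted p = 0.142), HT-29 replicate 2 (adjusted p = 0.08803) or HT-29 replicate 3 (adjusted p = 0.0868). DHCR7 was also not called with DESeq2 size factors (adjusted p = 0.0576), with library size alone (adjusted p = 0.0774) or in the 12 cancer line libraries (adjusted p = 0.08103).

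Few cell cycle genes were called (1 of 38 higher in LS1034, 3 higher in HT-29, 10.5% called against 22.6% of all genes; 0 and 3 without HT-29 replicate 2). No member was higher in LS1034 without LS1034 replicate 1, LS1034 replicate 2, LS1034 replicate 3, HT-29 replicate 1 or HT-29 replicate 3. 1 member was higher in HT-29 without LS1034 replicate 1, LS1034 replicate 3 or HT-29 replicate 3. MKI67, the proliferation antigen, stood at 148 ± 54.9 against 251 ± 38.5 CPM and was not called, while CCNA2, cyclin A2, was higher in HT-29 (60.1 ± 17.9 against 228 ± 83.4 CPM, log2 fold change -1.92 ± 0.33, adjusted p = 4.04e-04). In the list of DNA damage and arrest genes, 6 of 31 were higher in LS1034 and 3 higher in HT-29 (29% called against 22.6% of all genes; 7 and 2 without HT-29 replicate 2). CDKN2A, which encodes the inhibitors p16 and ARF, stood at 1.23, 0.967 and 1.77 CPM in LS1034 and 133, 139 and 268 CPM in HT-29 (log2 fold change -7.12 ± 0.46, adjusted p = 4.28e-08). The stress-induced kinase PLK2 stood at 43.9, 43.3 and 77.3 CPM in LS1034 and 662, 924 and 406 CPM in HT-29 (log2 fold change -3.601 ± 0.37, adjusted p = 3.17e-06). TNFRSF10B, a death receptor for TRAIL, was higher in LS1034 (193 ± 50.6 against 69.5 ± 25.03 CPM, log2 fold change 1.47 ± 0.32, adjusted p = 0.00266). The apoptosis gene PMAIP1 was higher there as well (113 ± 51.6 against 24.4 ± 8.68 CPM, log2 fold change 2.21 ± 0.45, adjusted p = 0.001598). The ubiquitin ligase MDM2 and CDKN1A, a cell cycle inhibitor, were not called (44.7 ± 4.22 against 67.4 ± 15.2 CPM and 126 ± 39.2 against 73.6 ± 38.3 CPM). CDKN1A was called without HT-29 replicate 2 (adjusted p = 0.0447).

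Of 32 tested HOX genes, which keep a record of position along the body axis, 5 were higher in LS1034 and 4 higher in HT-29 (28.1% called against 22.6% of all genes; 6 and 3 without HT-29 replicate 2). 2 members were higher in LS1034 without LS1034 replicate 1 or HT-29 replicate 3. HOXA9 stood at 213, 113 and 128 CPM in LS1034 and 41.4, 32.01 and 47.8 CPM in HT-29 (log2 fold change 1.91 ± 0.40, adjusted p = 0.00264). HOXA7 stood at 21.3 ± 1.16 against 4.75 ± 0.6902 CPM (log2 fold change 2.16 ± 0.43, adjusted p = 0.00153). HOXB13, a factor of the distal colon, was not called (6.34 ± 0.267 against 8.25 ± 3.08 CPM). The metallothionein MT1E, a zinc-binding protein, stood at 3.07, 5.73 and 12.5 CPM in LS1034 and 124, 156 and 259 CPM in HT-29 (log2 fold change -4.68 ± 0.55, adjusted p = 1.24e-05). MT1A went in the other direction, at 8.54, 32.6 and 6.84 CPM in LS1034 and 1.21, 0.5297 and 1.64 CPM in HT-29 (log2 fold change 3.88 ± 0.75, adjusted p = 0.00113). No others of 18 tested S100 and metallothionein genes were called (11.1%). 2 members were higher in LS1034 without LS1034 replicate 2. Metallothioneins are similar in sequence, so these single values are uncertain. Without HT-29 replicate 2, 2 members were called higher in LS1034. None of 13 replication-dependent histones and none of 13 mitochondrially encoded genes was called by edgeR (0 at an unadjusted p below 0.05 in either list, and 0 called by DESeq2).

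Of 14 tested cancer testis genes, which healthy adults express mainly in the germline, 4 were called higher in HT-29 and 2 higher in LS1034 (42.9% called; 3 and 2 without HT-29 replicate 2). 1 member was higher in LS1034 without LS1034 replicate 1, LS1034 replicate 2, HT-29 replicate 1 or HT-29 replicate 3. MAGEA3 stood at 0.112, 0.116 and 0 CPM in LS1034 and 18.5, 18.96 and 5.48 CPM in HT-29 and MAGEA6 at 0.0837, 0.271 and 0 CPM in LS1034 and 23.1, 22.9 and 4.23 CPM in HT-29 (adjusted p = 1.28e-05 and adjusted p = 1.12e-04), near-identical genes that may share reads and that were present in all HT-29 libraries. MAGEB2 had counts in HT-29 replicate 2 and not in the other HT-29 libraries, and without that library it was not called (log2 fold change 1.77, adjusted p = 0.541, against -7.505 ± 2.13 and adjusted p = 0.0215 with it). DDX43, a germline helicase, was higher in LS1034 (30.7, 11.2 and 16.4 CPM in LS1034 and 0, 0.0757 and 0 CPM in HT-29; adjusted p = 2.08e-05). Over all genes called higher in HT-29, 39 had more than 80% of the HT-29 level in replicate 2. MAGEB2 was not called without LS1034 replicate 1 (adjusted p = 0.0931), LS1034 replicate 2 (adjusted p = 0.0738), LS1034 replicate 3 (adjusted p = 0.0652) or HT-29 replicate 2 (adjusted p = 0.541). MAGEB2 was also not called by DESeq2 (adjusted p = 0.147).

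Some neural, muscle and mesenchymal markers were higher in LS1034: 5 of 8 tested smooth muscle and neural markers and 6 of 28 fibroblast markers, with 0 and 3 higher in HT-29. The shares called were 62.5% and 32.1%, against 22.6% of all tested genes (11.4% higher in LS1034 and 11.2% higher in HT-29). Without HT-29 replicate 2 the fibroblast markers numbered 6 and 2. 1 member was higher in HT-29 without LS1034 replicate 1. UCHL1, a ubiquitin hydrolase of neurons, stood at 118, 168 and 276 CPM in LS1034 and 0, 0.0378 and 0.673 CPM in HT-29 (log2 fold change 10.35 ± 0.93, adjusted p = 9.19e-07). The fibrillar collagen COL5A1 stood at 56.5, 88.99 and 153 CPM in LS1034 and 0, 0.189 and 0.289 CPM in HT-29 (log2 fold change 9.55 ± 0.86, adjusted p = 8.96e-07). The muscle filament DES stood at 6.52 ± 2.55 against 0.0825 ± 0.0766 CPM (log2 fold change 6.28 ± 1.03, adjusted p = 2.92e-04). The collagen COL1A1, the main product of fibroblasts, stood at 0.999 ± 0.412 against 3.61 ± 2.05 CPM and was not called. VIM stood at 0.504 ± 0.195 against 1.24 ± 0.6797 CPM and was called higher in HT-29 in the reported fit. Traces of CCD841CoN markers were found in both lines, and whether reads of CCD841CoN are part of such low levels was not tested. ESAM, a junction protein otherwise known from endothelium, was higher in HT-29 (0.335, 0.116 and 1.15 CPM in LS1034 and 82.2, 69.1 and 106 CPM in HT-29; log2 fold change -7.51 ± 0.90, adjusted p = 1.39e-05), 1 of 5 tested endothelial markers. Without HT-29 replicate 2, 1 endothelial marker was called higher in LS1034 as well. Of 6 tested immune markers 3 were higher in HT-29, LYZ among them, and 1 in LS1034 (66.7% called). No member was higher in LS1034 without LS1034 replicate 3, HT-29 replicate 1 or HT-29 replicate 3. The leukocyte antigen PTPRC, too low to be tested, stood at 0.265 ± 0.235 against 0.145 ± 0.126 CPM. VIM was not called without LS1034 replicate 1 (adjusted p = 0.256), LS1034 replicate 2 (adjusted p = 0.0581), LS1034 replicate 3 (adjusted p = 0.0695), HT-29 replicate 1 (adjusted p = 0.0597) or HT-29 replicate 3 (adjusted p = 0.193). VIM was also not called with DESeq2 size factors (adjusted p = 0.0528), with library size alone (adjusted p = 0.0535), in the 6 libraries alone (adjusted p = 0.207), in the 6 libraries with the replicate block (adjusted p = 0.216), in the 12 cancer line libraries (adjusted p = 0.179) or in the 12 cancer line libraries with the replicate block (adjusted p = 0.105). COL1A1 was called in the 6 libraries with the replicate block (adjusted p = 0.0438).

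**Figure D4:**
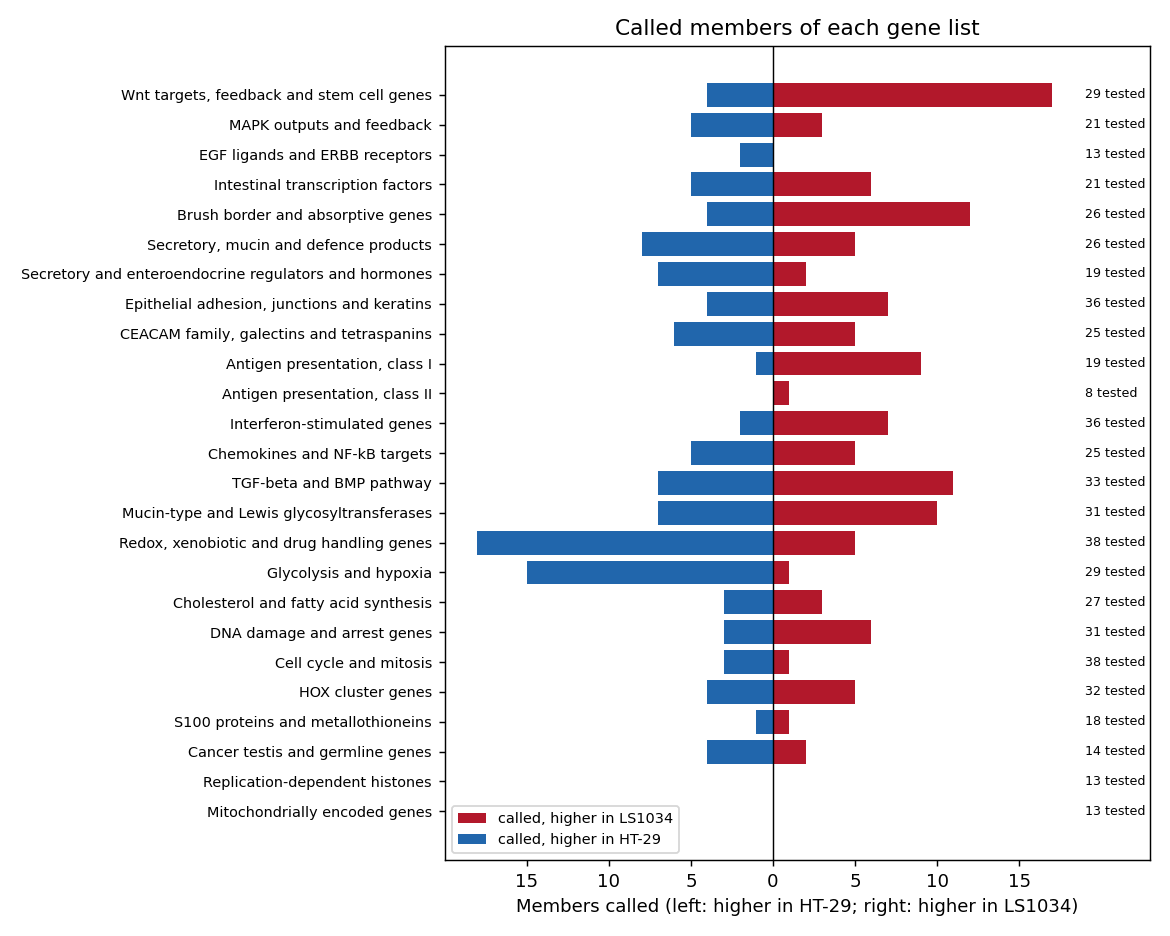
Members of each gene list called higher in LS1034 (red, right) and higher in HT-29 (blue, left), as counts, with the number tested at the right. The Wnt list has 17 members higher in LS1034, the redox list 18 and the glycolysis list 15 higher in HT-29 (a count of 6 without HT-29 replicate 1), and the histone and mitochondrial lists none.

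The same contrast was then read in the mixtures, which were separate libraries with 1 sample at each percentage and therefore no test, and genes of 1 pair of libraries are not independent. In the pair with 50% cancer RNA, 2869 of 3094 called genes with at least 20 counts (92.7%) had the direction of the unmixed lines, against 77.1% of all 13370 tested genes with that count. In the pair with 10% cancer RNA the shares were 81.4% and 67.6%, and at 1% they were 60.2% and 54.6%. At 0.1% they were 51.4% and 50.4%. The median log2 ratio in the 50% pair was 1.00 for genes called higher in LS1034 and -0.97 for genes called higher in HT-29. Single genes followed, with GUCY2C at 102 against 0.131 CPM, CDX1 at 147 against 0.373 CPM, NKD1 at 56.5 against 0.224 CPM and LYZ at 1.03 against 1389 CPM in the LS1034 and the HT-29 mixture. CD44, which CCD841CoN itself carries at 5407 ± 500.1 CPM, stood at 1889 against 1929 CPM, a ratio close to 1.

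**Figure D5:**
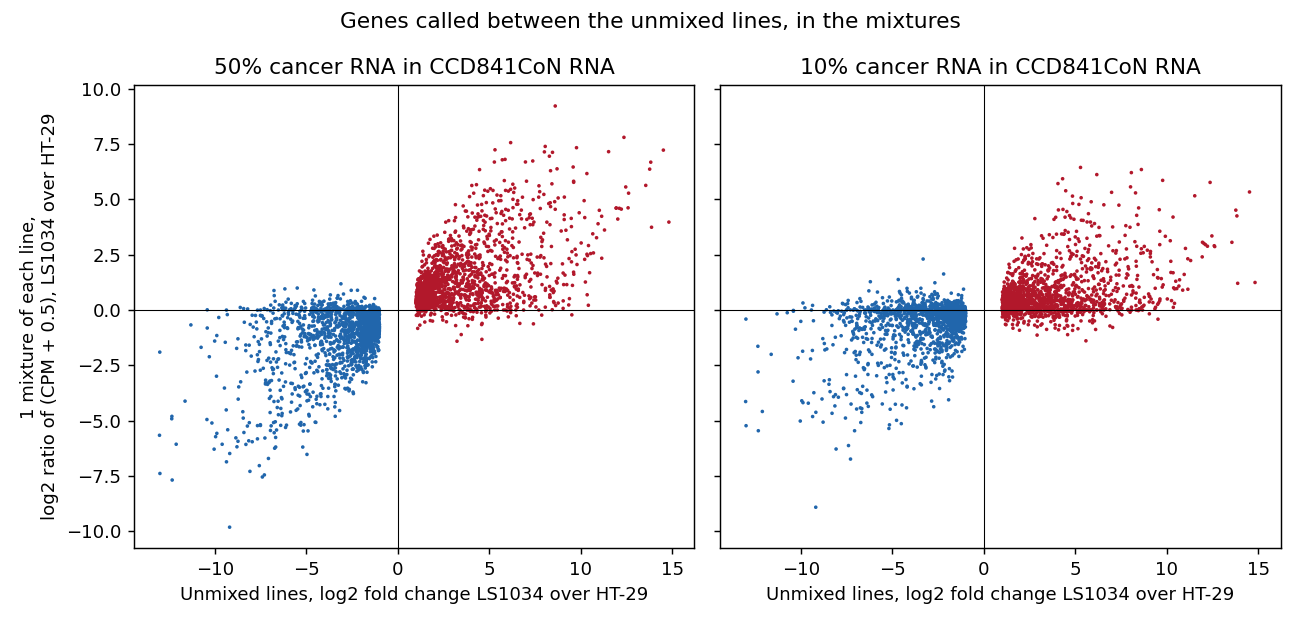
Each called gene by its log2 fold change between the unmixed lines (x axis) and its log2 ratio of CPM + 0.5 between the LS1034 and HT-29 mixtures (y axis), at 50% (left) and 10% (right) cancer RNA. At 50%, 92.7% of called genes with at least 20 counts lie on the side given by the unmixed lines, and at 10%, 81.4%.

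Mean levels in the other cancer lines, given without a test, set these genes beside LoVo and HCT116. CDX2 stood at 70.6 ± 25.6 CPM in LoVo and 12.3 ± 2.64 CPM in HCT116, between the levels of LS1034 and HT-29. GUCY2C, at 6.51 ± 1.79 and 0.0788 ± 0.0753 CPM, was highest in LS1034 of the 4 cancer lines. CD44, at 118 ± 13.2 and 369.5 ± 91.8 CPM, was lowest in LS1034 of the 4. LYZ, at 1.47 ± 0.577 and 0.0821 ± 0.117 CPM, was highest in HT-29. The mediator SMAD4, at 123 ± 62.7 and 114 ± 43.997 CPM, was lowest in HT-29.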

How the data were processed

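Total RNA of the cell lines was sequenced as ribosome-depleted, stranded libraries, per the labels' protocols. The authors deposited whole-number counts of reads per protein-coding gene, made with STAR and featureCounts on hg19, per the submitters' processing notes, with versions and strand setting not given in the sources used here. Samples were grouped by their labels. Counts of the 15 unmixed libraries of 5 lines were fitted with edgeR 4.0.16 (R 4.3.3) by the quasi-likelihood test, after TMM scaling and the default filter on low counts, which left 14452 of 17113 genes. The contrast was LS1034 minus HT-29, with p-values adjusted over all tested genes. A call needed both an adjusted p below 0.05 and a log2 fold change of 1 or more in size. The SE of a log2 fold change is its size divided by the square root of the F statistic. A fold against no count was computed against 3 counts over the group, and intervals cover counting error only. The fit without HT-29 replicate 2 and the other alternatives (DESeq2 1.42.0, other scaling, filters, libraries and a block) were fitted in the same way.

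Gene members, lists and tests were chosen with earlier results of these data known. The genes named were, in each direction, the 12 called genes with the largest ratio of mean CPM (at least 20 CPM in the higher line, no overlap of libraries, genes of the Y chromosome left out), members of 25 pathway lists by role and level, up to 6 genes whose call ended or began without HT-29 replicate 2, and markers of other lines or cell types. Genes named in the other observations were chosen after their values were seen. The replicate numbers are in the labels. Residuals of same-numbered libraries correlated at 0.493, 0.122 and 0.282 over 9254 genes, and those of differently numbered libraries at -0.402 to 0.114. The residuals were taken from the mean of each line, so these values are not independent of one another. HT-29 replicate 2 correlated with LS1034 replicate 1 at 0.114, near the 0.122 with LS1034 replicate 2. The numbers may pair the libraries across lines, but these values do not settle it. The reported fit ignored such a pairing, and the replicate number was a block only in alternative fits. Libraries of 1 line differed by a chi-square of 72.26 to 158.9 per degree of freedom, so none was a copy of another. On simulated counts, 200 of 14164 fitted genes were changed, far fewer than were called in the data. At an adjusted p below 0.05, with no limit on the fold change, 6% of the 2-fold and 67% of the 4-fold changes were found. Of the 77 genes below that threshold, 5.19% were unchanged ones. These shares are therefore not estimates for the reported comparison. Promoter windows came from RefSeq (GRCh38.p14), matched by symbol. Results for some genes that the rules above would name are not reported here.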

Additional observations from a re-analysis of the deposited data

How the results depend on the processing

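All alternative fits kept the counts of called genes within 1.5 times the reported 3265. With 1 library left out the total was 2691 (LS1034 replicate 1) to 3039 (LS1034 replicate 2), with 1338 to 1629 genes higher in LS1034 and 1271 to 1549 higher in HT-29. DESeq2 called 3573 genes, DESeq2 size factors in edgeR gave 3268, library size alone 3208, no filter on low counts 3240, the 6 libraries alone 3164 and the 12 cancer line libraries 2984. Without a limit on the fold change 3655 genes passed. With the replicate number as a block the count was 3601 in the 12 cancer line libraries and 3197 in the 6 libraries, and the calls the first of these blocks changed among the genes named are given in the report. Of 196 named genes that were called, 162 held their call in every alternative that gave a value, and 15 to 24 calls ended with 1 library left out. Of 870 list counts under the alternatives, 803 stayed within 1.5 times the reported count, and those moved by leaving out 1 library are in the report. With the replicate block in the 6 libraries alone, members higher in HT-29 numbered 4 secretory regulators, 5 interferon-stimulated genes, 3 chemokines and NF-kB targets, 6 sterol genes and 2 HOX genes. Directions reversed without HT-29 replicate 2, the library with counts of HCT116 markers, for GTSF1 (adjusted p = 0.185), MAGEB2 (adjusted p = 0.541) and the uncalled SPRY4. With 1 library left out, the log2 fold change of GTSF1 ran from -7.68 to 3.70, that of MAGEB2 from -9.24 to 1.77, that of SPRY4 from -0.53 to 0.45 and that of the uncalled KRT20 from -0.21 to 0.056. The cause of the reversals of SPRY4 and KRT20 was not tested. The share of called genes with the same direction in the mixtures was 81.4% in the 10% pair in place of 92.7% in the 50% pair, 92.1% with the calls of DESeq2 and 93.6% with the calls made without HT-29 replicate 2. With 3 libraries a line, a gene not called is not shown to be equal between the lines, and levels of a few counts are limited by depth. The 6% of 2-fold changes recovered belongs to the simulation, in which far fewer genes were changed than were called here.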

Other observations

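Some of the smallest adjusted p-values of the comparison belonged to genes outside the lists, which are named here after their values were seen. IGF2, a growth factor from an imprinted locus, stood at 669, 971 and 584 CPM in LS1034 and 11.1, 12.3 and 10.1 CPM in HT-29 (log2 fold change 6.05 ± 0.39, adjusted p = 4.25e-08). GNAI1, a subunit of inhibitory G proteins, stood at 0.363, 0.696 and 0.307 CPM in LS1034 and 164, 166 and 145 CPM in HT-29 (log2 fold change -8.39 ± 0.39, adjusted p = 4.85e-09). ARSJ, a sulfatase, stood at 0.0643 ± 0.05904 against 82.8 ± 10.5 CPM (log2 fold change -10.41 ± 0.52, adjusted p = 6.28e-09). The corepressor TLE1, a partner of TCF factors, stood at 2.37 ± 0.928 against 111 ± 10.97 CPM (log2 fold change -5.52 ± 0.34, adjusted p = 2.43e-08). CRABP2, a retinoic acid carrier, stood at 1.87, 0.696 and 1.15 CPM in LS1034 and 392, 259 and 379 CPM in HT-29 (log2 fold change -8.08 ± 0.47, adjusted p = 1.66e-08). DPEP1, a membrane dipeptidase, was higher in LS1034 (604 ± 191 against 21.1 ± 3.15 CPM, log2 fold change 4.84 ± 0.37, adjusted p = 5.08e-07), as was CD99, an adhesion glycoprotein (175 ± 80.5 against 6.35 ± 1.11 CPM, log2 fold change 4.79 ± 0.40, adjusted p = 4.59e-07).

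The D cyclins differed in direction. CCND2 and CCND1 were higher in LS1034 as given above, and CCND3 was higher in HT-29 (37.97 ± 13.6 against 109 ± 30.5 CPM, log2 fold change -1.52 ± 0.40, adjusted p = 0.0109). FGFR2, a fibroblast growth factor receptor, stood at 0.1404 ± 0.157 against 95.1 ± 5.72 CPM (log2 fold change -9.19 ± 0.64, adjusted p = 2.75e-07) and WNT7B, a Wnt ligand, at 0.0186 ± 0.0322 against 20.8 ± 1.63 CPM (log2 fold change -9.38 ± 0.80, adjusted p = 5.52e-07), both higher in HT-29. CCND3 was not called without LS1034 replicate 1 (adjusted p = 0.0754) or LS1034 replicate 3 (adjusted p = 0.05199).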
